A study of Mus musculus with 6 samples.

Results

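The retinoic acid genes followed here were 10 genes picked by name, the nuclear receptors *Rara*, *Rarb*, *Rarg* and *Rxra*, the cytosolic binding proteins *Crabp1* and *Crabp2*, and the genes of uptake, synthesis and breakdown *Stra6*, *Dhrs3*, *Aldh1a3* and *Cyp26b1*. All 10 were found among the 55809 genes of the deposited counts. They were measured in HC11 cells, a mouse mammary epithelial line which the study used as a luminal line, by RNA sequencing of 3 libraries of cells in medium with BMP7 and 3 libraries of cells in medium without BMP7 (Ctrl). No genetic change was named for either group, and the study's methods have cells of this line starved and then given BMP7 for either minutes or hours, without saying which of these stimulations was sequenced. Values are given in the order of Ctrl replicates 1, 2 and 3 and BMP7 replicates 1, 3 and 4, the numbers of the deposited columns, and the sources do not say whether libraries came from separate cultures, so p-values measure only the spread between these libraries.

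Between 19858701 and 20327200 fragments per Ctrl library and between 14607938 and 23748970 per BMP7 library were counted in genes. Levels are given as CPM, the share of a gene in the counts of a library after TMM scaling, and levels of different genes are set beside each other only as FPKM, the same value per kilobase of exon. A gene was called when edgeR's quasi-likelihood test gave a Benjamini-Hochberg adjusted p under 0.05 over all 15733 genes tested, with a fold change above 1.2. By 4 keratins taken alone, the luminal name was not borne out. The basal genes *Krt5* and *Krt14* stood at 1203 and 1985 FPKM in Ctrl (means, n = 3) and the luminal genes *Krt8* and *Krt18* at 32.3 and 34.4 FPKM. Other genes of the luminal list stood higher than these 2, with *Epcam* at 291 and *Cdh1* at 215 FPKM in Ctrl. The summed level of 18 luminal markers was 1896 to 1925 CPM in the Ctrl and 1614 to 1633 CPM in the BMP7 libraries, with 4 of 13 tested called lower and 1 higher, and that of 12 basal markers was 6954 to 7086 and 7957 to 9395 CPM, with 5 of 11 tested called higher. In the luminal list 1 gene had no count. Over all genes tested, 5.99% were called higher and 5.38% lower. *Krt5* and *Krt14* made up most of the basal sum in Ctrl, with means of 2644 and 3489 CPM. Their log2 fold changes were -0.03 (adjusted p = 0.807, edgeR) and 0.43 (adjusted p = 0.00109, edgeR). The part of these markers in the results on retinoic acid genes was not tested, and fewer cells of a type cannot be told apart from less RNA per cell in such bulk libraries.

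Retinoic acid is made in cells from vitamin A. Retinol is taken up through STRA6, oxidised to retinal by retinol dehydrogenases, and oxidised further to retinoic acid by the ALDH1A enzymes, while DHRS3 turns retinal back into retinol and the CYP26 enzymes break retinoic acid down. CRABP proteins carry retinoic acid in the cytosol, and receptors of the RAR family act on DNA as pairs with an RXR, at repeats of a short motif. These repeats are called retinoic acid response elements. Retinoic acid is known as a regulator of Hox genes, and *Rarb*, *Cyp26a1*, *Cyp26b1*, *Dhrs3*, *Stra6* and *Crabp2* are known to be induced by it in many cells.

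Promoter windows from 250 bases before to 50 bases after a transcript start were taken from RefSeq (GRCm38.p6, unlike the mm39 positions of the counts) and matched 8 of the 10 members with 18 windows. The windows of *Rarb*, the textbook carrier of a response element, and of *Cyp26b1* and *Dhrs3*, which had the lowest adjusted p of the members, are shown 5′ to 3′ on the strand of the gene. They lie at chr14:16575427-16575726 (minus strand), chr6:84593761-84594060 (minus strand) and chr4:144892577-144892876 (plus strand, the most upstream of 3 windows). Capitals mark the motifs searched on both strands.
*Rarb*: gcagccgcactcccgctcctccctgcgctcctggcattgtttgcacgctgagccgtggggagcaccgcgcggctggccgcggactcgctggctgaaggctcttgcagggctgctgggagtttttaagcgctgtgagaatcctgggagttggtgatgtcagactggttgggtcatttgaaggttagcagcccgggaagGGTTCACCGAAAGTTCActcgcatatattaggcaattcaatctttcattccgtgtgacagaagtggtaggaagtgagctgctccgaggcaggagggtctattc
*Cyp26b1*: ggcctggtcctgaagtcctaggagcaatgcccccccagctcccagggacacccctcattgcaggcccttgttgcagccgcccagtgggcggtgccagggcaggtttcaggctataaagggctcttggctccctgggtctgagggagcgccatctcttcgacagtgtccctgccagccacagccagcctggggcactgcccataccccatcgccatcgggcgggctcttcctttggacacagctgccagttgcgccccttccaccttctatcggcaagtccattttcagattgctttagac
*Dhrs3*: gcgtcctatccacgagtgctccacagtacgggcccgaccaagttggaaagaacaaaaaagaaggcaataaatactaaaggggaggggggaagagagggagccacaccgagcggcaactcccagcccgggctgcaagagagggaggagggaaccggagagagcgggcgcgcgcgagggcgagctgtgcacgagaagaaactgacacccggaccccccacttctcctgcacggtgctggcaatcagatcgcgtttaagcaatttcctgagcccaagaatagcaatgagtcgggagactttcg

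The motifs were DR5, meaning 2 receptor sites in the same direction with 5 bases between them, DR2, the same with 2 bases between, the single sites, the Smad sites and the joined Smad element of BMP target genes. A receptor site in these repeats was AGGTCA. Also taken was the form AGTTCA, and further forms were GGGTCA and, with both changes, the form GGTTCA. Of these, AGGTCA was also searched alone, and so was the form AGTTCA. The Smad sites were GGCGCC, known for BMP signals, and CAGACA, and the joined element was GGCGCC with GTCT following after 5 bases. The *Rarb* window held a DR5 element, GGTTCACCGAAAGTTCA, beginning at position -53 from the start, and its end is also the window's AGTTCA match, at position -42. A DR5 element was found in 0.0974% of all 32851 windows of the table and in this 1 of the 18 windows of members. No searched motif was found in the *Cyp26b1* window or the 3 *Dhrs3* windows, which says only that these letters are not in these bases. AGGTCA was present in 3 of the members' windows (16.3% of all windows hold it) and AGTTCA in 3 (14% of all), GGCGCC in 1, that of *Crabp1* (11.9% of all), and CAGACA in 4, of *Stra6* and *Rarg* (21% of all). DR2 and the joined Smad element were present in 0.268% and 0.0731% of all windows and matched no member.

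With BMP7, *Cyp26b1* and *Dhrs3*, which remove retinoic acid and its precursor retinal, rose by more than 2-fold, the receptors *Rara* and *Rarg* rose by less, and *Crabp2* fell. Of the 10 members, 7 passed the expression filter and were tested, 5 of them were called higher and 1 lower, against 5.99% of all genes tested called higher and 5.38% called lower (11.4% in either direction). Without the fold threshold the calls were 6 higher and 1 lower, beside 7.33% and 6.42% of all genes tested. The 3 members left out by the filter, *Rarb*, *Crabp1* and *Stra6*, had at most 7 counts in any library. *Aldh1a3* passed it through the BMP7 libraries, since 1 of 3 Ctrl libraries but 3 of 3 BMP7 libraries reached the filter's level of 0.503 CPM, so its share in these counts follows in part from the filter. The median log2 fold change of the 7 was 0.43, beside -0.01 over all genes tested. For each of these 7 members the groups did not overlap (two-sided exact permutation test, p = 0.1, the smallest possible with 3 libraries against 3), while 29.8% of all genes tested had groups that did not overlap.

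**Figure D1:**
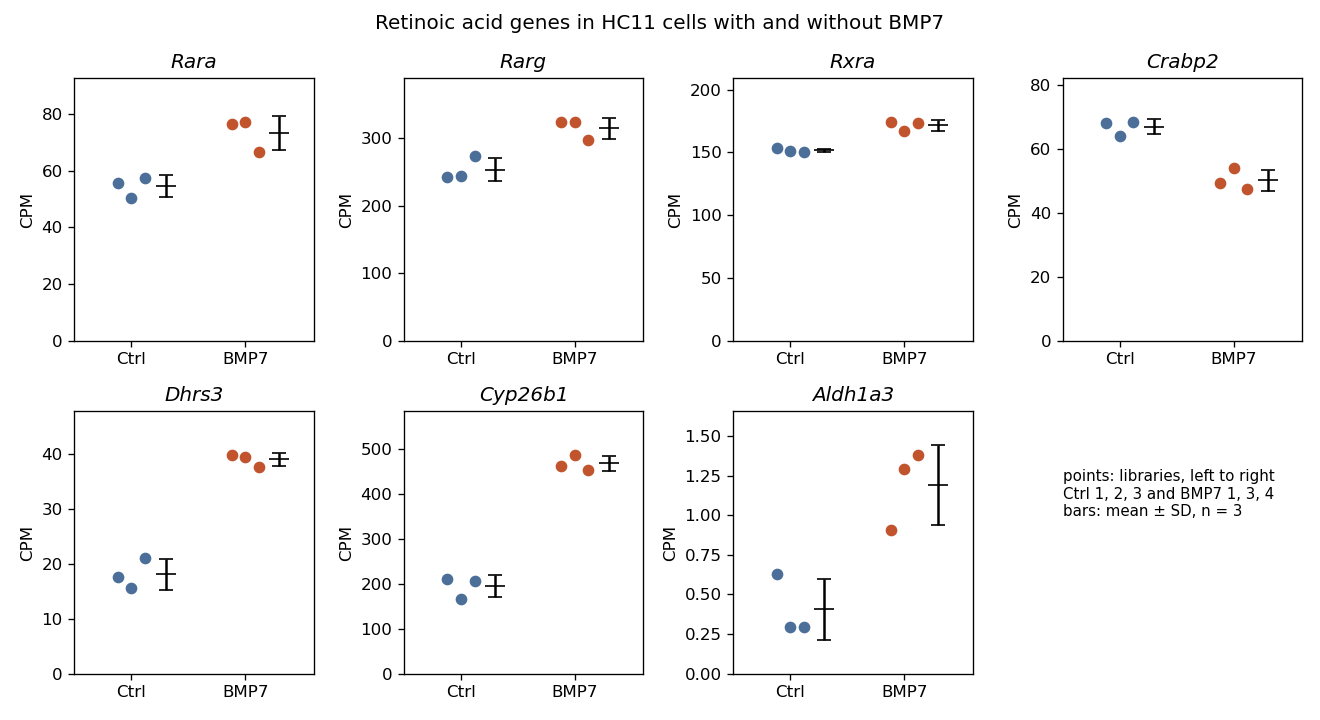
Level in CPM (vertical axis, from 0) of the 7 tested retinoic acid genes in each library, with Ctrl in blue and BMP7 in orange and the mean and SD of 3 libraries beside the points. The groups are apart in every panel, with *Crabp2* lower and the other 6 higher with BMP7.

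*Cyp26b1*, on chromosome 6 from 84548396 to 84570890 in the mm39 annotation, encodes an enzyme that oxidises retinoic acid for breakdown. It was measured at 211, 167 and 207 CPM in the Ctrl libraries, and at 463, 487 and 454 CPM in the BMP7 libraries. Every BMP7 library was more than 2-fold above every Ctrl library, as 454 stands against 211. The mean rose from 195 ± 24.2 to 468 ± 16.9 CPM (SD, n = 3 libraries each). The log2 fold change came to 1.26 (standard error 0.08, 95% interval 1.10 to 1.43, adjusted p = 1.02e-08 by the edgeR test), and *Cyp26b1* ranked 55 by p among all genes tested. Its fold change lay between 1.16 and 1.32 on the log2 scale over all alternatives tried. The 2 other CYP26 genes were barely detected, with at most 2 counts of *Cyp26a1* and 1 of *Cyp26c1* in any library, and *Cyp2s1*, a P450 that also acts on retinoic acid, showed a log2 fold change of -0.09 (adjusted p = 0.678 by the same edgeR test).

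*Dhrs3*, on chromosome 4 from 144619397 to 144654779, encodes the retinal reductase that lowers the supply of retinal. Its levels were 17.5, 15.6 and 21.1 CPM in the Ctrl libraries and 39.8, 39.5 and 37.7 CPM in the BMP7 libraries. The BMP7 libraries were nearly alike, and the Ctrl libraries were spread more widely below them. From 18.1 ± 2.81 to 39.0 ± 1.14 CPM (SD, n = 3 each), the log2 fold change was 1.11 (standard error 0.10, 95% interval 0.90 to 1.32, adjusted p = 6.89e-07 by the edgeR test). Of 15 other tested genes of the step between retinol and retinal, the 1 called was *Rdh13*, lower at a log2 fold change of -0.32 (adjusted p = 0.0218, edgeR), and its call was lost without Ctrl replicate 1, Ctrl replicate 2 or BMP7 replicate 4 (adjusted p between 0.0164 and 0.748 over the alternatives). *Rdh10*, the main retinol dehydrogenase of the embryo, had means of 84.2 and 79.9 CPM and a log2 fold change of -0.08 (adjusted p = 0.507, edgeR). Per length, *Dhrs3* stood at 0.247 to 0.376 times *Rdh10* in the Ctrl libraries and at 0.679 to 0.723 times with BMP7, a pair chosen after the values were seen.

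*Aldh1a3*, on chromosome 7 from 66040638 to 66077265, encodes an enzyme that makes retinoic acid from retinal. It was close to the limit of detection, with 13, 6 and 6 counts in the Ctrl libraries and 13, 29 and 25 counts in the BMP7 libraries. In CPM these were 0.626, 0.295 and 0.293 against 0.906, 1.29 and 1.38, so the highest Ctrl library was nearest to BMP7 replicate 1. The log2 fold change was 1.56 (standard error 0.42, 95% interval 0.67 to 2.44, adjusted p = 0.0194 by edgeR), and under the alternatives the adjusted p lay between 0.00844 and 0.404. The call was lost when Ctrl replicate 2, Ctrl replicate 3, BMP7 replicate 3 or BMP7 replicate 4 was left out, and with BMP7 replicate 1 alone against Ctrl the log2 fold change was 1.15. BMP7 replicates 3 and 4 also had higher adipocyte marker levels, with 18 genes summing to 129 and 114 CPM while BMP7 replicate 1 had 48.9 and Ctrl 33.9 to 47.6 (11 of 13 tested called higher), and lower levels of 16 macrophage markers, with 33.2 and 31.5 CPM while BMP7 replicate 1 had 71.9 and Ctrl 66.9 to 72.1 (2 of 12 tested called lower). Over all genes tested, 5.99% were called higher and 5.38% lower. The part of these markers in the *Aldh1a3* result was not tested. The defining adipocyte gene *Adipoq* was at 0.639 to 1.16 CPM in Ctrl, 1.05 in BMP7 replicate 1 and 4.62 and 3.86 in BMP7 replicates 3 and 4, and the leukocyte gene *Ptprc* at 3.59 to 3.90 CPM in Ctrl and 3.21, 1.07 and 0.992 CPM in the BMP7 libraries. Transcripts of *Aldh1a3* also match those of 42 other genes over up to 194 bases at 95% identity or more, and fragments that map to several places were not counted.

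The 4 other genes listed for the step from retinal to retinoic acid, *Aldh1a1*, *Aldh1a2*, *Aldh1a7* and *Aldh8a1*, were all left out by the filter. *Aldh1a1* had 3, 1 and 3 counts in Ctrl and 10, 9 and 7 counts in the BMP7 libraries, and *Aldh1a2* had at most 3 counts in a library. Summed per length, *Aldh1a1*, *Aldh1a2* and *Aldh1a3* gave 0.0933 to 0.186 FPKM in Ctrl and 0.337 to 0.380 FPKM with BMP7, while the 3 CYP26 genes gave 31.2 to 39.4 FPKM and 84.8 to 91.0 FPKM. Both sums were higher in every BMP7 library than in every Ctrl library, as were 14.8% of all genes tested. In each library the breakdown sum, nearly all of it *Cyp26b1*, stood more than 100 times above the synthesis sum. The synthesis sum rests on at most 29 counts of *Aldh1a3* and 10 counts of *Aldh1a1* in a library.

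The binding protein CRABP2 carries retinoic acid from the cytosol to the receptors. *Crabp2*, on chromosome 3 from 87855973 to 87860683, was measured at 68.1, 64.2 and 68.4 CPM in the Ctrl libraries and at 49.3, 53.9 and 47.5 CPM in the BMP7 libraries, so all BMP7 libraries were below all Ctrl libraries. It fell from 66.9 ± 2.32 to 50.2 ± 3.31 CPM (SD, n = 3 each), at a log2 fold change of -0.41 (standard error 0.07, 95% interval -0.56 to -0.26, adjusted p = 0.000567 by edgeR). *Fabp5*, which binds retinoic acid among other lipids, showed a log2 fold change of 0.38 in the other direction (adjusted p = 0.0152, edgeR, between 4.73e-06 and 0.404 over the alternatives), with 64.4 to 92.5 CPM in Ctrl and 96.0 to 103 CPM with BMP7, and lost its call without Ctrl replicate 2 or Ctrl replicate 3. *Crabp1*, the other CRABP gene, had 1 count in BMP7 replicate 4 and none in the other 5 libraries. Per length, the ratio of *Cyp26b1* to *Crabp2* was 0.642 to 0.764 in the Ctrl libraries and 2.23 to 2.36 in the BMP7 libraries. This pair of a risen and a fallen gene was chosen after the counts were seen, so the ratio only restates their fold changes.

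Of the receptors, *Rarg* was the most abundant RAR gene. *Rarg*, on chromosome 15 from 102143373 to 102165952, was at 243, 245 and 274 CPM in Ctrl and at 324, 324 and 298 CPM in the BMP7 libraries, with the closest libraries 274 and 298. It rose by a log2 fold change of 0.31 (standard error 0.07, 95% interval 0.17 to 0.45, adjusted p = 0.00373 by edgeR), so that the interval reaches below a fold change of 1.2. *Rara*, on chromosome 11 from 98818644 to 98865768, was at 55.8, 50.3 and 57.6 CPM in Ctrl and at 76.6, 77.2 and 66.5 CPM in the BMP7 libraries, and it rose by 0.43 on the log2 scale (standard error 0.08, 95% interval 0.27 to 0.59, adjusted p = 0.000947 by edgeR). Both kept their calls in each of the 6 fits that left out 1 library, with *Rarg* between 0.28 and 0.37 and *Rara* between 0.37 and 0.49. Of the summed FPKM of the RAR genes, *Rarg* made up 81.7% to 83.3% in Ctrl and 81.1% to 82.1% with BMP7, ranges that overlap.

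*Rxra* encodes the main RXR partner of the RAR proteins in epithelia and lies on chromosome 2 from 27566452 to 27652969. It was measured at 153, 151 and 150 CPM in Ctrl and at 174, 167 and 174 CPM in the BMP7 libraries, so the groups did not overlap but were close. The log2 fold change was 0.18 (standard error 0.06, 95% interval 0.06 to 0.30, adjusted p = 0.0462 by edgeR), past the p threshold but under a fold change of 1.2, and the adjusted p lay between 0.0252 and 1 over the alternatives. *Rxrb* showed a log2 fold change of -0.06 (adjusted p = 0.648, edgeR), with means of 35.2 and 33.7 CPM, and *Rxrg* had 1 count in all 6 libraries together.

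*Rarb*, on chromosome 14 from 5650540 to 6038924, is a receptor gene that retinoic acid induces through the element shown above. It had 1 count in BMP7 replicate 1 and none in the other libraries, where 0 counts in the 3 Ctrl libraries together allow a level of up to 0.0499 CPM (3 counts, counting error only). Of its exon length, 38.4% is shared with *Top2b* and Gm48162, and fragments there were not counted for either gene. *Stra6*, on chromosome 9 from 57971071 to 58061279, had 2, 0 and 0 counts in Ctrl and 7, 2 and 5 counts in the BMP7 libraries. The ratio of BMP7 to Ctrl over the summed counts was 7.42, with an exact 95% interval of 1.71 to 67.3 that covers counting error only, and without the filter on low counts the edgeR test gave an adjusted p of 0.165. For both genes the depth does not allow a statement on a change between libraries, and *Crabp1*, on chromosome 9 from 54672032 to 54680394, is in the same position.

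**Figure D2:**
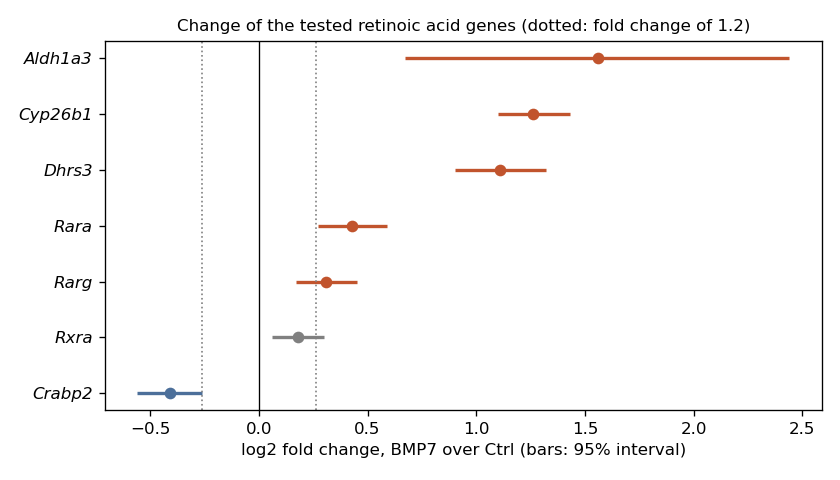
Log2 fold change of BMP7 over Ctrl (horizontal axis) for the 7 tested members, with 95% intervals from edgeR's fit of 3 libraries against 3 and dotted lines at a fold change of 1.2. *Cyp26b1* and *Dhrs3* lie near 1.26 and 1.11 with narrow intervals, *Aldh1a3* has an interval from 0.67 to 2.44, and the intervals of *Rxra* and *Rarg* cross the line.

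Per length, the order of the members changed at its top. In Ctrl, *Rarg* was highest with 59.6 ± 4.02 FPKM (SD, n = 3), followed by *Crabp2* (50.6 ± 1.75 FPKM), *Cyp26b1* (36.4 ± 4.53 FPKM), *Rxra* (24.0 ± 0.239 FPKM), *Rara* (12.5 ± 0.868 FPKM), *Dhrs3* (6.18 ± 0.961 FPKM) and *Aldh1a3* (0.0877 ± 0.0415 FPKM). The *Rarg* level was above that of 94.7% of all genes tested and the *Dhrs3* level above that of 51.3%. With BMP7, *Cyp26b1* moved from the third place to the first with 87.4 ± 3.15 FPKM, above *Rarg* with 74.0 ± 3.62 FPKM, and *Crabp2* moved to the third place with 38.0 ± 2.50 FPKM. *Rxra* (27.2 ± 0.660 FPKM), *Rara* (16.8 ± 1.38 FPKM), *Dhrs3* (13.3 ± 0.390 FPKM) and *Aldh1a3* (0.258 ± 0.0542 FPKM) kept their places. In each group the ranges of the 7 tested members over the 3 libraries did not overlap between neighbours in the order, whereas *Stra6*, *Crabp1* and *Rarb* were not separated from each other.

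**Figure D3:**
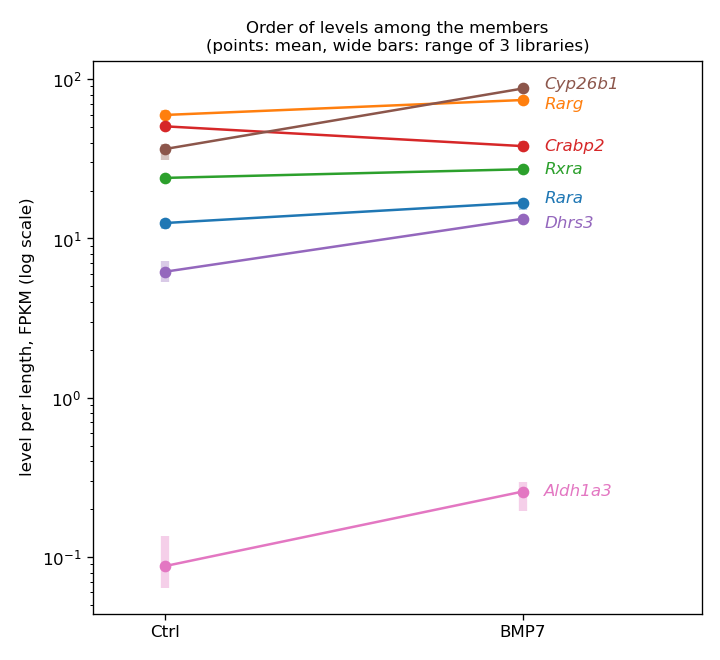
Mean level per length in FPKM (vertical log axis) of the 7 tested members in Ctrl and BMP7, with wide bars for the range of 3 libraries. The line of *Cyp26b1* rises from 36.4 to 87.4 FPKM and crosses those of *Crabp2* and *Rarg*, and *Aldh1a3* lies far below the rest.

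The other genes of the pathway were taken from lists by role. These lists were fixed with earlier results of these data known, so shares of called genes describe the lists and test nothing. Of 124 such genes in the counts, 82 were tested, 14 were called higher and 3 lower, which is 20.7% against 11.4% of all genes tested, and their median log2 fold change was 0.04 against -0.01. Among 25 coregulators of the receptors, 3 rose, a share of 12% that is near the 11.4% of all genes tested. These were *Skil* (log2 fold change 0.90, adjusted p = 3.87e-08, edgeR) and *Ski* (0.36, adjusted p = 0.00189), corepressors that also bind Smad proteins, and *Zfp703* (0.84, adjusted p = 3.8e-07), a transcriptional repressor of the luminal lineage. *Zfp703* shares 13.5% of its exon length with another gene, so its level is less certain. The corepressor gene *Ncor1* stood at -0.03 on the log2 scale (adjusted p = 0.835, edgeR). *Skil* was at 101, 99.2 and 101 CPM in Ctrl and at 174, 199 and 190 CPM in the BMP7 libraries, so its groups were well apart.

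Of 12 tested receptors that pair with RXR, *Vdr*, the vitamin D receptor, rose from 325 ± 4.11 to 511 ± 9.69 CPM (SD, n = 3 each), at a log2 fold change of 0.66 (adjusted p = 5.25e-07, edgeR), and *Nr1h3*, the liver X receptor alpha, was called higher at 0.54 (adjusted p = 0.0316, edgeR, between 0.0197 and 0.208 over the alternatives) but kept its call only without Ctrl replicate 3 among the 6 fits that left out 1 library. Among 5 tested genes of uptake and storage, *Scarb1*, a receptor for lipoproteins that also takes up carotenoids, fell by a log2 fold change of 0.37 (adjusted p = 0.00364, edgeR), from 39.4 to 30.5 CPM, and was not called with BMP7 replicate 1 alone. *Lpl*, which releases lipids and retinyl esters from lipoproteins and is also on the adipocyte list, showed a log2 fold change of 1.92 (adjusted p = 0.00041, edgeR). It was at 3.13 to 4.43 CPM in Ctrl, 5.58 CPM in BMP7 replicate 1 and 19.2 and 17.1 CPM in BMP7 replicates 3 and 4, the replicates with the higher adipocyte sums, and with BMP7 replicate 1 alone its log2 fold change was 0.57 and its call was lost.

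The calls among genes known to respond to retinoic acid were mostly Hox genes, which pattern the body axis. The list holds 40 genes that are not members, of which 24 were tested, 7 were called higher and 1 lower (33.3% in all, beside 11.4% of all genes tested), with a median log2 fold change of 0.09. Of the 7, 6 were Hox genes, out of 11 Hox genes of the list that were tested. *Hoxa4* rose by 0.65 on the log2 scale (adjusted p = 0.00163, edgeR) and *Hoxc4* by 1.78 (adjusted p = 0.00115), and both were called in each fit that left out 1 library. *Hoxa3* (0.59, adjusted p = 0.0169), *Hoxa5* (0.39, adjusted p = 0.042) and *Hoxc5* (1.11, adjusted p = 0.0253) were called as well, but each lost its call in 3 or 4 of the 6 such fits, among them those without Ctrl replicate 1 and without Ctrl replicate 2. Under the alternatives the adjusted p lay between 9.5e-06 and 0.295 for *Hoxa3*, 0.018 and 0.492 for *Hoxa5*, which also lost its call with upper-quartile scaling, and 0.00438 and 0.114 for *Hoxc5*. Counts of *Hoxc4* were low, with 14, 12 and 17 in the Ctrl libraries and 43, 57 and 32 in the BMP7 libraries. Those of *Hoxc5* were also low, with 20, 16 and 31 in Ctrl and 38, 42 and 48 with BMP7. The 4 tested HoxB genes of the list had log2 fold changes from 0.07 to 0.30 and did not pass, and *Hoxb1* had no count in any library. *Hoxa3* and *Hoxa4* share 27.1% and 16% of their exon length with other genes, so their levels are less certain.

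Outside the Hox genes, 13 genes of the list were tested. Of these, 2 were called (15.4%, beside 11.4% of all genes tested), and the median log2 fold change of the 13 was -0.04. *Igfbp3*, which binds insulin-like growth factors, rose from 518 ± 48.8 to 994 ± 79.6 CPM (SD, n = 3 each), at a log2 fold change of 0.94 (adjusted p = 3.2e-07, edgeR). *Ccnd1*, the cyclin D1 gene, was called lower at -0.39 (adjusted p = 0.0347, edgeR, between 1.54e-06 and 0.489 over the alternatives). However, its groups overlapped, and among the fits that left out 1 library it kept the call only without Ctrl replicate 1. It was not called with DESeq2. With 23.4% of its exon length shared with another gene, its level is also less certain. *Tgm2*, transglutaminase 2, showed a log2 fold change of -0.34 (adjusted p = 0.0789, edgeR), and *Nrip1*, *Meis1* and *Meis2* lay between 0.01 and 0.08.

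**Figure D4:**
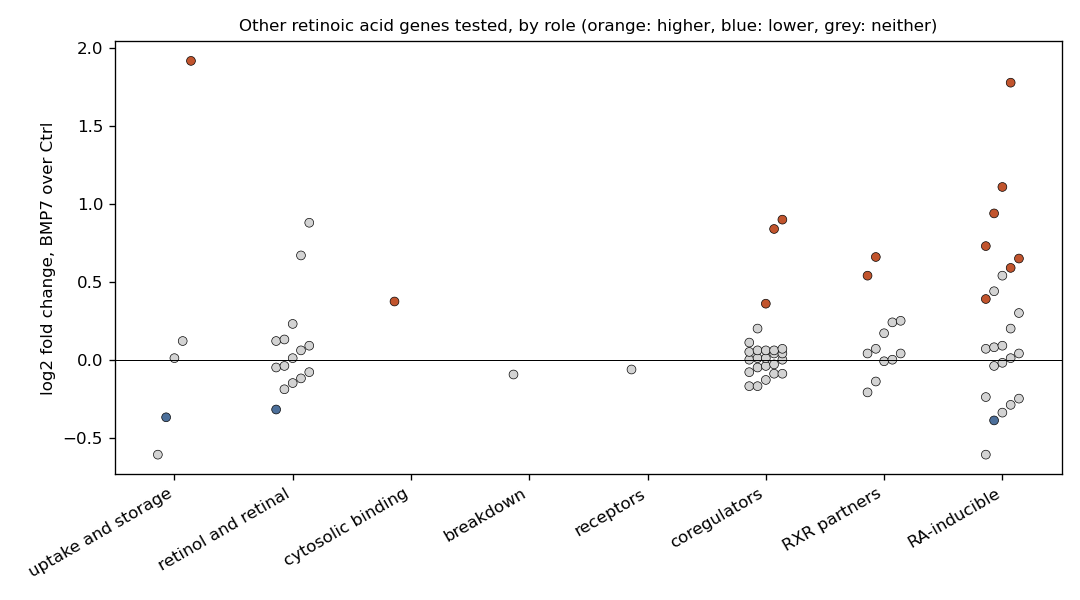
Log2 fold change of BMP7 over Ctrl (vertical axis) for the 82 tested genes of the pathway lists that are not members, in columns by role, with genes of several lists drawn in each. Most points lie near 0, and the called genes are drawn in orange for higher and blue for lower. Of these, 7 and 1 are among the 24 genes listed as responding to retinoic acid (the column RA-inducible).

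The members share no common position. They lie on 9 chromosomes, with *Crabp1* and *Stra6* both on chromosome 9. *Rarg* ends 663586 bases before the HoxC cluster, which runs from 102829538 to 102945278 on chromosome 15 and whose 7 tested genes were all called higher, beside 5.99% of all genes tested. Of the 18 tested genes in between, 3 were called higher, with a median log2 fold change of 0.05. *Rara* lies 2559562 bases from the HoxB cluster, where 2 of 9 tested genes were called higher, and of the 62 tested genes in between 2 were called higher and 5 lower, with a median of -0.03. Within 100 kb of the *Rarg* start, 7 other genes were tested and 1, *Aaas*, a nuclear pore gene, was called higher (log2 fold change 0.37, adjusted p = 0.00373, edgeR). Around *Rara*, 1 of 5 such genes was called, the replication gene *Cdc6*, and it fell by 0.51 on the log2 scale (adjusted p = 0.00522, edgeR). The 7 tested genes near *Crabp2* had log2 fold changes from -0.30 to 0.19 without a call, and no other tested gene started within 100 kb of *Cyp26b1* or *Dhrs3*.

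The fold changes of the members other than *Aldh1a3* were nearly the same under the alternatives. BMP7 replicate 1 alone against Ctrl gave log2 fold changes of 1.25 for *Cyp26b1* and 1.14 for *Dhrs3*. The values for *Rara*, *Rarg* and *Crabp2* in the same fit were 0.49, 0.35 and -0.44. In that fit the lone BMP7 library is assumed to vary as the Ctrl libraries do. It was set apart from the BMP7 libraries with higher adipocyte and lower macrophage sums. The part of these sums in the results on the members was not tested, and a single library cannot settle it.

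**Figure D5:**
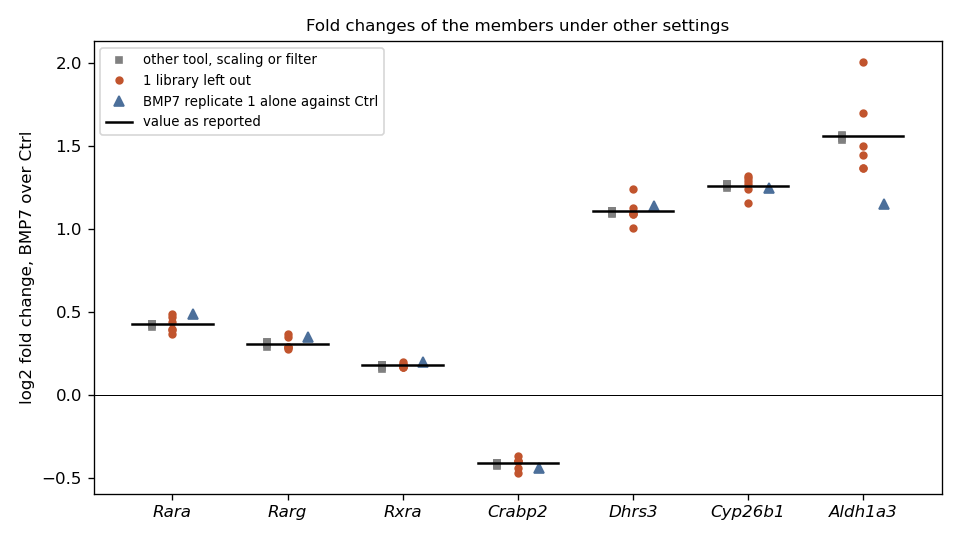
Log2 fold change of BMP7 over Ctrl (vertical axis) of the 7 tested members as reported (black line) and under other tools, scalings and filters (grey squares), with 1 library left out (orange circles) and with BMP7 replicate 1 alone (blue triangles). The points of *Cyp26b1* stay between 1.16 and 1.32, and those of *Aldh1a3* spread from 1.15 to 2.01.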

How the data were processed

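Poly(A) RNA of HC11 cells was sequenced as read pairs. The authors aligned the reads with subjunc (Subread 2.0.3, to mm10 per the methods), assigned fragments to exons by gene name with featureCounts (2.0.1 in the file header, with an annotation named mm39), and deposited counts without normalization, together with each gene's summed exon length. Strand was not used, and fragments mapping to several places or genes were left out. Counts per library ranged from 14607938 to 23748970. Counting error is small for genes with many counts and large for those near 10.

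BMP7 and Ctrl libraries (n = 3 each) were compared in R 4.3.3 with edgeR 4.0.16 (expression filter, TMM, quasi-likelihood test, Benjamini-Hochberg adjustment over 15733 genes). Standard errors are the log2 fold change over the square root of F. Exact permutation tests used log2 CPM with a prior count of 2. The common biological coefficient of variation was 0.0696. Libraries of a group differed by more than counting noise (chi-square over its degrees of freedom, 5.34 to 12.9). The tests were tried on simulated data. Alternatives were DESeq2 1.42.0, RLE and upper-quartile scaling, no filter, a minimum of 10 counts per library, other fold thresholds, glmTreat, leaving out each library, and parts of the BMP7 libraries. Copies were searched with BLAST 2.17.0 among GENCODE vM21 transcripts (at least 100 bases, 95% identity).

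The members, lists, tests and alternatives were chosen with earlier results of these data known, and the ratios between members after their counts were seen. Named were all members, the called genes of the lists, called genes within 100 kb of a called member, and a set of defining cell type markers, apart from some genes that are not reported here. Other genes (*Rdh10*, *Cyp2s1*, *Rxrb*, *Rxrg*, *Ncor1*, *Tgm2*, *Nrip1*, *Meis1*, *Meis2*, *Ripply3*, *Hoxb1*, *Top2b* and the other CYP26 and ALDH genes) were chosen after their values were seen. The fibroblast markers (8 genes) summed to 114 to 125 CPM without BMP7 and 100 to 119 with it, with 4 of 6 tested called higher and 1 lower, and the endothelial markers (6 genes) to 13.3 to 15.9 and 24.0 to 26.3, with the 1 tested called higher. These calls stand beside 5.99% of all genes tested called higher and 5.38% called lower.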

Additional observations from a re-analysis of the deposited data

How the results depend on the processing

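No member reversed its direction under any alternative. *Cyp26b1* and *Dhrs3* kept their calls in all of them, *Rara*, *Rarg* and *Crabp2* in all except glmTreat against a fold change of 1.2 and the fold threshold of 1.5, and *Rxra* was called only by adjusted p alone. With glmTreat, 2 members were higher and 0 lower (1 lower in the quasi-likelihood test), and of the other listed genes 8 were higher and 0 lower, and at a fold change of 1.5, 3 members were higher and 0 lower, with 0 other listed genes lower. With BMP7 replicate 1 alone, 8 other listed genes were higher, and without a filter on low counts 5 were lower. Leaving out 1 library gave 4 to 5 members higher and 1 lower, and 10 to 15 other listed genes higher and 2 to 3 lower. Shares of all genes tested were taken only for the main fit, with or without its fold threshold, and for groups that do not overlap. The counts under the alternatives therefore stand without such a share, and a fall in them may be general to all genes. The order of levels was the same with library totals in place of TMM. At least 10 counts in every library left *Aldh1a3* untested. No paired analysis was possible because the BMP7 columns are numbered 1, 3 and 4 and the labels 1 to 3, so the columns cannot be tied to the labelled replicates. Among the members, depth limits *Aldh1a3*, *Stra6*, *Rarb* and *Crabp1*, at under 30 counts per library.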
